A study of Sus scrofa with 32 samples.

Results

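Guanylin (GUCA2A), uroguanylin (GUCA2B), their receptor guanylate cyclase C (GUCY2C), the chloride channel CFTR and the ion channel bestrophin 4 (BEST4) were followed in single cells of the pig ileum. The genes were chosen by symbol among the 25880 genes of the deposited count matrices. Of the 5 symbols 4 were found. No gene carried the symbol GUCY2C, and the entry that may stand for it is described apart. The genes were read in epithelial cells that passed quality control and in barcodes that failed it. A QC cell had at least 550 genes and met the study's cut-offs on total UMIs (unique molecular identifiers, which count each captured RNA molecule once) and on the share of mitochondrial UMIs. It was taken as epithelial where it held at least 2 UMIs of EPCAM, an adhesion molecule of epithelia, and at least 2 of KRT8, a keratin of simple epithelia. This left 616 epithelial QC cells of 35386 QC cells in the ileum, or 1.74%. Failing barcodes had at least 500 UMIs and missed 1 or more of the QC thresholds. There were 16206 of these, of which 622 passed the EPCAM and KRT8 thresholds and are called gated failing barcodes.

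The guanylin peptides are secreted by the intestinal epithelium into the lumen and act on guanylate cyclase C in the apical membrane of epithelial cells. The receptor makes cyclic GMP, which through cyclic GMP-dependent protein kinase and phosphodiesterases leads to opening of CFTR and inhibition of the sodium-proton exchanger SLC9A3, so that chloride, bicarbonate and water enter the lumen. Bacterial heat-stable enterotoxin, a cause of diarrhea in piglets, acts on the same receptor. BEST4 names a rare absorptive-lineage cell of the human gut that also holds the carbonic anhydrase CA7 and the proton channel OTOP2, and that is known for guanylin and uroguanylin transcripts.

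Ileum of 2 mixed-breed pigs at 7 weeks of age, pig 1 female and pig 2 male, was dissected into tissue holding only Peyer's patches (PP), tissue free of them (non-PP) and whole cross-sections (whole ileum), which made 6 ileal libraries. Blood mononuclear cells (PBMC) of the same pigs made another 2. The pigs were untreated, and cells were enriched for live lymphocytes on density gradients and by removal of dead cells, so the epithelial cells were those that escaped this enrichment. The dissections give 2 libraries each, labelled 1 per pig. For differences between dissections, p-values measure the spread between libraries of the same dissection. For differences between classes of barcodes, they measure how the difference within a library varies over the 6 ileal libraries. These come from only 2 pigs, so they are not independent animals.

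Before the results, 1 library went against its label. The library labelled whole ileum pig 1, a female, held 4 Y-linked genes at a summed 204 CPM (UMIs per 1000000), whereas the other ileal libraries of the female held 0.153 to 0.232 and those of the male 181 to 225. Differences of the guanylins between classes, and between dissections in epithelial QC cells, are given with and without this library. So are the shares held by few cells. Between dissections in failing barcodes only the adjusted p of the guanylins is given without it. For gated failing barcodes no separate value between dissections is given. The libraries held between 21134542 and 40111934 UMIs. Any 2 of the 8 libraries shared between 68 and 134 barcodes of 500 or more UMIs, where chance draws from the barcode list give 70.0 to 131. No epithelial QC cell shared its barcode with one of another ileal library. Epithelial QC cells numbered 128 in PP pig 1, 45 in PP pig 2, 233 in non-PP pig 1, 66 in non-PP pig 2, 53 in the library labelled whole ileum pig 1 and 91 in whole ileum pig 2. Among epithelial QC cells 47 had a barcode with 500 or more UMIs in another library, 1 of the CA7 cells described below among them. Marker lists were read as a check of the label. Summed levels of 12 enterocyte genes lay between 21473 and 114656 CPM in epithelial QC cells and between 72.9 and 2359 in other QC cells, and those of 11 leukocyte genes between 259 and 1197 against 9722 to 12615. PTPRC, the pan-leukocyte gene CD45, had a UMI in 140 of the 616 epithelial QC cells, and the T cell gene CD3E in 156. Clustering put 68 of the 616 cells, with 332 GUCA2A and 52 GUCA2B UMIs, in 2 clusters led by leukocyte genes. Doublets were not removed by the rule. A doublet score above 0.25 marked 6 of the 616 cells.

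In the RefSeq annotation of Sscrofa11.1, the build of the files, GUCA2A (chromosome 6, 169146336 to 169148284) and GUCA2B (chromosome 6, 169152172 to 169154557) are neighbours with 3887 bases between them. BEST4 lies on the same chromosome (166540767 to 166547149), 2599186 bases before GUCA2A. CFTR lies on chromosome 18 (28627717 to 28818209) and GUCY2C on chromosome 5 (57780484 to 57902475). The guanylin genes are paralogs, and what became of reads that fit both was not tested.

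All 4 genes were higher in epithelial QC cells than in the other QC cells, except that epithelial QC cells of non-PP pig 2 had no BEST4 UMI. In epithelial QC cells GUCA2A was at 832 CPM and 487 CPM for pigs 1 and 2 of PP, at 197 and 148 for those of non-PP, and, of whole ileum, at 2455 for the library labelled pig 1 and at 405 for pig 2. In other QC cells it lay between 1.49 and 10.1 CPM. GUCA2B was at 221, 200.2, 86.3, 17.8, 769 and 145 CPM in the same order, and between 1.49 and 9.75 in other QC cells. Both genes were highest in the library labelled whole ileum pig 1 and lowest in non-PP pig 2. There GUCA2B was below the 86.8 CPM of near-empty barcodes, described next, of the same library.

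CFTR was more even, at 17.7, 17.7, 19.6, 42.0, 24.5 and 32.5 CPM in that order of libraries, against 0.0382 to 0.352 in other QC cells. BEST4 was at 11, 7.09, 4.41, 0, 31.0 and 9.14 CPM, from 59 UMIs in all, and between 0.153 and 0.604 CPM in other QC cells. The difference on the log2 scale was 7.64 ± 0.37 (SE) for CFTR, 6.90 ± 0.74 for GUCA2A, 5.81 ± 0.83 for GUCA2B and 4.71 ± 0.70 for BEST4. UMIs were summed by class within each library, and with library as a term edgeR (quasi-likelihood, Benjamini-Hochberg) gave an adjusted p of 1.1e-08, 7.4e-06, 8.0e-05 and 0.00011. So 4 of 4 genes were called higher at an adjusted p under 0.05, where 29.9% of the 11645 genes tested were higher, 34.1% lower and 64% either. BEST4 and CFTR, with 37 and 13 UMIs in other QC cells, passed the low-count filter only through the epithelial sums. The filter thus made a call of higher likely for these 2. Without the filter 4 of 4 were still called, beside 7901 of all 17247 genes. Without the library labelled whole ileum pig 1 the differences were 7.42, 6.26, 5.15 and 4.05, and 4 of 4 were called, beside 7031 of all 11528 genes. Leaving out barcodes of 5 or more CA7 UMIs removed 10 epithelial QC cells, described after the shares, and 1 other QC cell. GUCA2A was then higher by 5.37 ± 0.53 and GUCA2B by 3.10 ± 0.48 (adjusted p by edgeR 3.5e-06 and 0.00015). CFTR was higher by 7.61 ± 0.37, and BEST4 did not pass the low-count filter. Without the leukocyte-like clusters all 4 were called, at 7.68, 6.85, 5.87 and 4.73 in the order first given, beside 7361 of all 11620 genes. In blood, 1 UMI of GUCA2B was found in 6443 QC cells of pig 1 and 0 in 6800 of pig 2, and none of GUCA2A, BEST4 or CFTR in either.

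**Figure D1:**
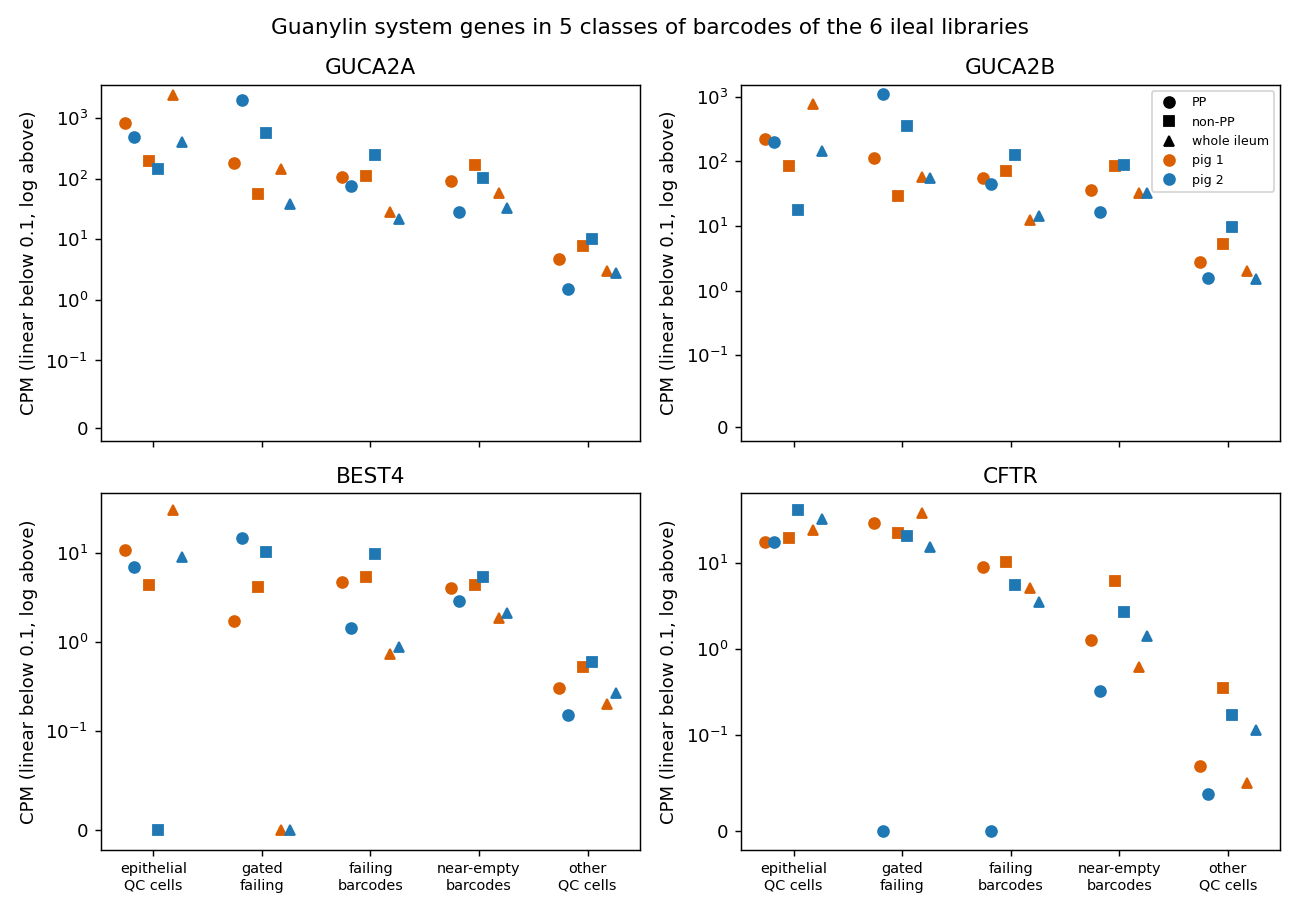
CPM of each gene (vertical axis, linear below 0.1 and logarithmic above) in 5 classes of barcodes (horizontal axis), 1 point per ileal library, with the shape giving the dissection and the color the pig. GUCA2A, GUCA2B and CFTR are above other QC cells in every library's epithelial QC cells, whereas in near-empty barcodes GUCA2A still reaches 28.4 to 170 CPM and CFTR only 0.326 to 6.17.

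A share of cells with a UMI said less about the guanylins than about CFTR. GUCA2A had a UMI in 132 of the 616 epithelial QC cells (21.4%), GUCA2B in 86 (14.0%), CFTR in 119 (19.3%) and BEST4 in 13 (2.11%), and without the library labelled whole ileum pig 1 the shares were 20.2%, 12.8%, 19.0% and 1.60%. The median depth was 10442.5 UMIs, against 2729 in other QC cells, where the shares were 1.03%, 0.733%, 0.0374% and 0.101%. After thinning each cell to the UMI minimum of a QC cell, GUCA2A was expected in 6.33% to 22.8% of the epithelial cells of a library and in 0.141% to 0.864% of the others, GUCA2B in 2.73% to 14.5% and 0.157% to 0.762%, and CFTR in 1.64% to 4.54% and 0.00478% to 0.0475%.

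RNA outside cells was read from near-empty barcodes of 10 to 100 UMIs. If every UMI of an epithelial QC cell had been drawn from it, an upper limit, 29.0% to 70.1% of the cells of a library would hold a GUCA2A UMI and 18.5% to 60.2% a GUCA2B UMI. The shares seen, 13.2% to 34.0% and 6.67% to 26.4%, were below this limit in 6 of 6 libraries, so that shares of cells with a UMI do not set the guanylins apart from this background. BEST4 was above its limit in 1 of 6. For CFTR the limit was 0.408% to 5.22%, and the shares seen, 13.3% to 39.4%, were above it in 6 of 6 libraries.

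The guanylin UMIs were held by few cells. Of 4056 GUCA2A UMIs, 3913 (96.5%) lay in 46 cells with 5 or more, and 2987 (73.6%) in the 10 highest. For GUCA2B, 1091 of 1278 UMIs (85.4%) lay in the 10 highest cells, and for BEST4 56 of 59. CFTR was spread out, with 1 UMI in 88 of its 119 cells, at most 5 in any cell, and 18.2% of its 159 UMIs in the 10 highest. Without the library labelled whole ileum pig 1 the 10 highest held 80.5% of the GUCA2A, 88.2% of the GUCA2B and 20.1% of the CFTR UMIs. The single highest cell held 55.3% and 77.1% of all GUCA2A UMIs of the epithelial QC cells of PP pigs 1 and 2, 46.9% and 59.5% of those of non-PP, 24.6% in the library labelled whole ileum pig 1 and 62.4% in whole ileum pig 2. So each library's level of GUCA2A rested on few cells. In 5 libraries the highest cell was one of the CA7 cells described next, and in non-PP pig 2 it held 69 GUCA2A, 1 GUCA2B and 737 TFF3 UMIs.

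CA7, the carbonic anhydrase of human BEST4 cells, had 5 or more UMIs in 9 of the 10 cells highest in GUCA2A. Only 13 epithelial QC cells held a CA7 UMI, and the 10 with 5 or more, a threshold set after their values were seen, held 71.7% of the GUCA2A, 85.4% of the GUCA2B and 94.9% of the BEST4 UMIs. In these 10 cells GUCA2A had 121 UMIs at the lowest, 231 at the median and 752 at the highest, and GUCA2B had 36, 100 and 260. BEST4 had 2, 4.5 and 13, with a UMI in 10 of 10. The guanylins together made up 1.21% to 16.9% of all UMIs of a cell, with a median of 5.97%. OTOP2 had a UMI in 7 of the 10, and in 0 of the 603 cells without a CA7 UMI (exact 95% upper bound 0.61%). SPIB, a transcription factor of B cells that human BEST4 cells also hold, had a UMI in 10 of 10 and in 31 of 606. CA4 had one in 7 and 41, and HES4 in 4 and 14. CFTR had a UMI in 3 of the 10, with 4 UMIs in all, and 155 of its 159 UMIs lay in the other cells. From these few UMIs CFTR was at 57.3 CPM in the 10 cells, against 23.6 in the other 606. The CA7 cells held 0 to 2 UMIs of CD45 each, in 4 of 10 cells, and 0 to 4 of CD3E, in 4 of 10 and at 100.2 CPM against 47.6 in the other 606, and a doublet score above 0.25 in none.

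The CA7 cells numbered 2 of 128 in PP pig 1, 1 of 45 in PP pig 2, 2 of 233 in non-PP pig 1, 0 of 66 in non-PP pig 2, 4 of 53 in the library labelled whole ileum pig 1 and 1 of 91 in whole ileum pig 2. That is 1.62% of the epithelial QC cells, and 1.07% (6 of 563) without the library labelled whole ileum pig 1, in which case they still held 65.0% of the GUCA2A, 82.5% of the GUCA2B and 92.5% of the BEST4 UMIs. Since lymphocytes were enriched, these are not shares of the tissue. A second set of 36 cells held 5 or more GUCA2A UMIs and under 5 of CA7. In these GUCA2A had a median of 11 and a highest value of 199, GUCA2B had a UMI in 21 with a median of 1, and BEST4 and OTOP2 had none. All 36 held TFF3, a peptide of goblet cell mucus, with 1 UMI at the lowest and a median of 180.5, where the median of the CA7 cells was 3.5. Of all 606 cells under 5 CA7 UMIs, 406 held TFF3, at a median of 2. Their TFF3 was at 26235 CPM, against 28575 in the 36.

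**Figure D2:**
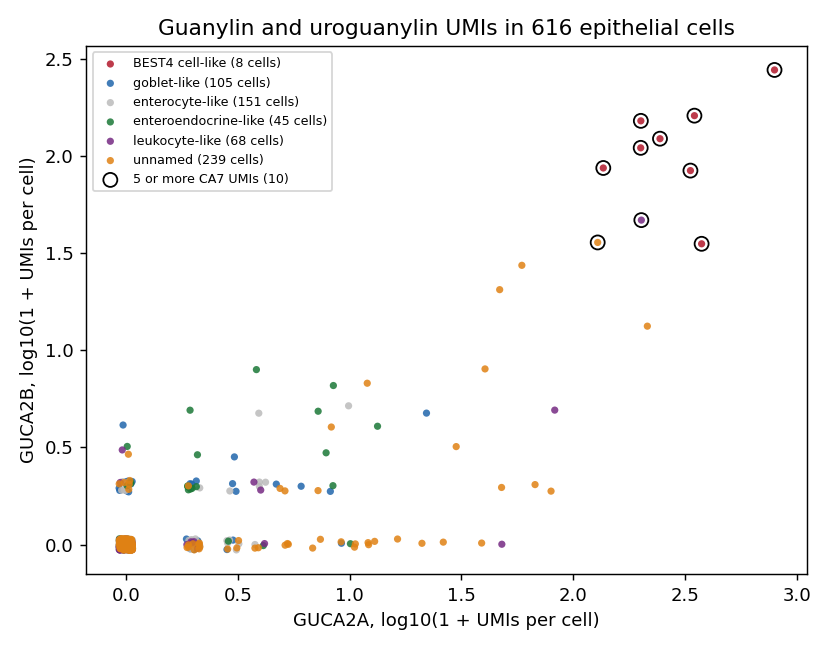
GUCA2A against GUCA2B UMIs of each of 616 epithelial QC cells, both axes as log10 of 1 plus the UMIs, with a small random shift so that equal values can be seen. Colors give the cluster class and circles the 10 cells with 5 or more CA7 UMIs, which lie at 121 to 752 GUCA2A and 36 to 260 GUCA2B UMIs, apart from the other cells, which reach at most 199 and 28.

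Clusters were made without the 4 genes and the GUCY2C candidate, and named only from written marker lists, so they describe these cells and test nothing. Of 13 clusters, 1 of 8 cells was BEST4 cell-like, led by CA7, with OTOP2, SPIB and CA4 among its 10 leading genes. All 8 of its cells held GUCA2A, GUCA2B and BEST4, and together they held 64.1%, 79.1% and 79.7% of the UMIs (52.9%, 72.6% and 70% without the library labelled whole ileum pig 1, which leaves 4 cells). They came from 5 libraries, 4 of them from the library labelled whole ileum pig 1 and none from non-PP pig 2. The other CA7 cells were 1 of an unnamed cluster led by the crypt gene OLFM4 and 1 of a cluster led by T cell genes.

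Other clusters held the guanylins at lower levels. The unnamed cluster led by OLFM4 held 357 GUCA2A and 83 GUCA2B UMIs (228 and 53.1 CPM) in 98 cells, and the larger leukocyte-like cluster, led by T cell genes, 331 and 52 (915 and 144 CPM) in 48, with 121 and 188 of the GUCA2A UMIs in the CA7 cell of each. In a cluster of 30 cells with BPI, ITLN2, RETNLB and REG4 among its 10 leading genes, genes of secretory and antimicrobial cells, 27 held GUCA2A, with 574 UMIs in all, and 9 held GUCA2B, with 43. The goblet-like cluster of 105 cells, led by TFF2, TFF3 and MUC2, held 72 GUCA2A and 26 GUCA2B UMIs, at 91.7 and 33.1 CPM, within the 28.4 to 170 and 16.6 to 86.8 CPM of near-empty barcodes. Of 19 enteroendocrine-like cells led by SST, NTS, PYY and GCG, which encode gut hormones, 13 held GUCA2A and 12 held GUCA2B, at 421 and 221 CPM. Of the other 26 enteroendocrine-like cells, led by CHGB and CHGA, 4 and 6 did. Enterocyte-like cells, 151 in all, were at 27.0 CPM of GUCA2A and 11.2 of GUCA2B, both below the near-empty barcodes of every library.

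The balance of the guanylins differed among these groups. Per UMI of GUCA2B there were 2.57 of GUCA2A in the BEST4 cell-like cluster and between 1.34 and 10.3 in single CA7 cells. There were 13.3 in the cluster led by BPI and 1.91 in the enteroendocrine-like cells led by SST. Near-empty barcodes had 1.03 to 2.52 per library, other QC cells 0.951 to 1.85 and failing barcodes 1.5 to 2.26. These are ratios of UMIs and not of amounts of RNA, since the genes may be captured unequally.

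Most CFTR UMIs lay in clusters other than the BEST4 cell-like one. CFTR had a UMI in 38 of 98 cells of the cluster led by OLFM4, with UBE2C and PCLAF among its leading genes, and was at 37.1 CPM there. It was at 37.5 CPM in a cluster led by SLPI and EMP1, at 30.6 in one led by GPX2 and at 20.6 to 28.5 in the 3 enterocyte-like clusters. Of the goblet-like cells 1 of 105 held it, at 1.27 CPM, and of the enteroendocrine-like cells 0 of 45, where a count of 0 allows a UMI in up to 6.67% of cells (exact 95% upper bound 7.87%) and is no limit on cells that express it. The BEST4 cell-like cells held 4 UMIs in 3 of 8 cells, at 80.2 CPM, too few to rank.

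**Figure D3:**
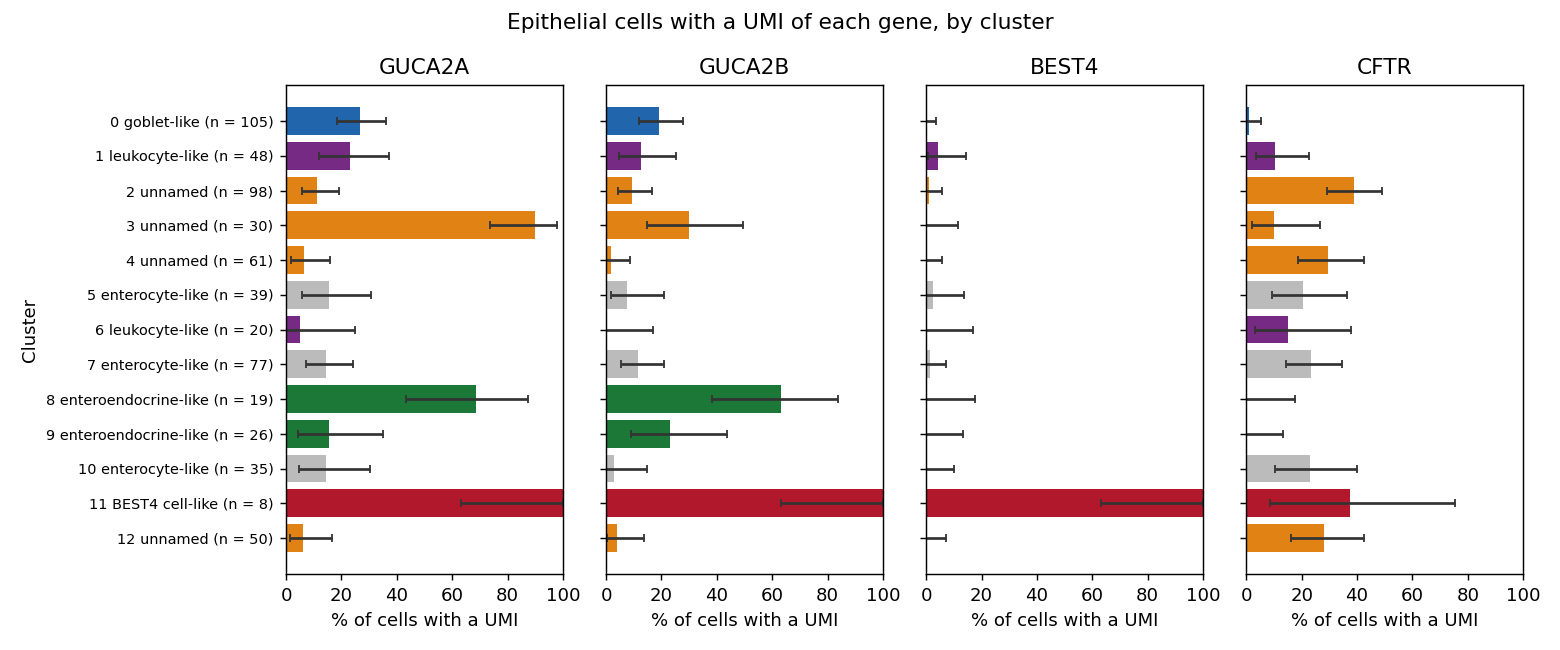
Percent of cells with at least 1 UMI of each gene (horizontal axis) in the 13 clusters of epithelial QC cells (vertical axis, with the number of cells), with exact 95% binomial intervals for counting error. BEST4 reaches 100% in the BEST4 cell-like cluster and at most 4.17% elsewhere, while CFTR is at 0.952% of goblet-like and 0% of enteroendocrine-like cells and at 38.8% in cluster 2.

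Genes whose level varied most like each gene over the 616 cells were named by Pearson's r of log-scaled UMIs per 10000, among 8215 other genes present in at least 5% of the cells. They come from the same cells, whose depth differs, and carry no test. For GUCA2A these were GUCA2B (r = 0.78), SPIB (0.57) and an entry without a symbol (0.55). For GUCA2B they were GUCA2A (0.78), SPIB (0.67) and the same entry (0.52). Without the 10 CA7 cells the r of GUCA2A and GUCA2B was 0.54, and those with SPIB were 0.08 and 0.07. For CFTR no gene passed r = 0.28, reached by an entry without a symbol and followed by HADH (0.28), an enzyme of fatty acid oxidation. BEST4 was in too few cells for this. Of cells with GUCA2A, 43.9% also held GUCA2B (58 of 132), and of those without it 5.79% (28 of 484). Of cells with CFTR 15.1% held GUCA2A (18 of 119), and of those without it 22.9%.

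The receptor could not be read. The identifier ENSSSCG00000026724 is paired with GUCY2C in the name table given with the data and with PLBD1 in the matrices. PLBD1, a phospholipase of myeloid cells, lies 48396 bases after GUCY2C on chromosome 5. In epithelial QC cells the entry was at 24.5 to 57.9 CPM and had a UMI in 186 of 616 cells, and in other ileal QC cells it was at 3.56 to 7.59 CPM. The difference was 3.00 ± 0.23 on the log2 scale (edgeR, adjusted p = 4.6e-07). Over the 616 cells it varied most like SCG2 (r = 0.51), CHGA (0.50) and PCSK1 (0.49), genes of enteroendocrine cells. In blood it was at 213 and 451 CPM in QC cells of pigs 1 and 2, and in cells with a UMI of the monocyte gene CD14 and none of CD3E at 1753 and 1487. Which of the genes these UMIs belong to was not settled, and the entry is counted with neither. GUCA2A too has one identifier in the matrices and another in the name table, and it was taken by its symbol in the matrices.

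Other genes of the pathway were taken from a written list of 26, of which 25 were named in the matrices and 19 passed the low-count filter of the comparison with other QC cells. Of these 15 were called higher, 1 lower and 3 were not called, with a median log2 difference of 4.52 against -0.15 over all genes tested, of which 29.9% were higher and 34.1% lower. The largest were the potassium channel genes KCNN4 (7.96 ± 0.39) and KCNQ1 (7.88 ± 0.31), which supply the driving force for chloride exit, and the chloride-bicarbonate exchanger SLC26A3 (7.21 ± 0.64), all with adjusted p under 0.05 by edgeR. The kinase PRKG2, the main target of cyclic GMP in the epithelium, was higher by 5.47 ± 0.93 and the cyclic GMP phosphodiesterase PDE5A by 4.44 ± 0.49. GUCY1B1, a subunit of the soluble cyclase that answers nitric oxide, was lower, by -3.02 ± 0.46. Of 10 genes listed for BEST4 cells 7 were tested and 5 were higher, CA7 (6.66 ± 0.74), CA4 (5.65 ± 0.86) and KCNMA1 (3.82 ± 0.70) the most, with OTOP2 and MEIS1, beside the same 29.9% of all genes. CA7 and CA4, with 47 and 17 UMIs in other QC cells, were tested only through the epithelial sums. How many other listed genes were so was not counted. SPIB was lower by -2.59 ± 0.46 in epithelial than in other QC cells, which are mostly lymphocytes.

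Between the dissections, no gene was called in epithelial QC cells. GUCA2A was at 659 ± 244 CPM (SD, n = 2 libraries) in PP and 172 ± 34.6 in non-PP, and GUCA2B at 210.4 ± 14.4 and 52.1 ± 48.4. The log2 difference of non-PP minus PP was -1.85 ± 0.73 for GUCA2A and -1.82 ± 0.84 for GUCA2B. CFTR was at 17.7 in both PP libraries and at 19.6 and 42.0 in non-PP, with a difference of 0.80 ± 0.42. Leaving out 1 library moved GUCA2B to between -3.53 (without non-PP pig 1) and -1.15 (without non-PP pig 2), CFTR to between 1.27 and 0.28 for the same libraries, and GUCA2A to between -2.20 and -1.40. The cells also came from different clusters. The cluster led by BPI held 16 of 128 and 5 of 45 epithelial QC cells of PP pigs 1 and 2 and 0 of 233 and 3 of 66 in non-PP, with 355, 62, 0 and 80 GUCA2A UMIs. Goblet-like cells made up 23.4%, 0%, 28.3% and 1.52% in the same order. The part of this in the differences was not tested. In edgeR's fit of the 6 ileal libraries the adjusted p was 0.997 for GUCA2A and 0.998 for GUCA2B and CFTR, so 0 of 3 genes tested were called, where 0.029% of 6892 genes were called. BEST4 did not pass the low-count filter. At an unadjusted p under 0.05 by edgeR there was 1 of 3, GUCA2A (0.037), beside 342 of all 6892 genes. DESeq2 called 0 of 3, beside 29 of all 5422 genes it tested. Without the low-count filter edgeR called both guanylins (GUCA2A -1.82, adjusted p 0.00015, GUCA2B -1.80, adjusted p 5.8e-05), beside 171 of all 13461 genes.

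Without the CA7 cells GUCA2A was at 302 and 113 CPM in PP pigs 1 and 2 and at 38.0 and 148 in non-PP, and GUCA2B at 39.6 and 3.58 and at 21.7 and 17.8, so that both overlapped. The differences were then -1.19 ± 0.72 and -0.23 ± 0.86. This alternative was chosen after seeing the data, as was leaving out the leukocyte-like clusters, which gave -2.28 ± 0.81 and -2.14 ± 0.83. Without the library labelled whole ileum pig 1 they were -1.87 ± 0.42 and -1.86 ± 0.62, adjusted p by edgeR 0.58 and 1.00. The share of epithelial QC cells with a UMI, thinned to the UMI minimum of a QC cell, was 10.4% ± 2.92 in PP and 7.85% ± 2.16 in non-PP for GUCA2A, 4.15% ± 1.84 and 3.27% ± 0.769 for GUCA2B, 1.23% ± 0.252 and 0.258% ± 0.365 for BEST4 and 1.73% ± 0.125 and 3.29% ± 1.77 for CFTR (SD, n = 2). A two-sided exact permutation test of 2 against 2 libraries, whose smallest p is 0.33, gave 0.67, 0.67, 0.33 and 0.33, and 0.67 for each after adjustment over the 4 genes.

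Failing barcodes held much of the guanylin RNA. Over the 16206 barcodes there were 2040 GUCA2A, 1142 GUCA2B, 84 BEST4 and 127 CFTR UMIs. Barcodes over the mitochondrial cut-off, 9004 of them, held 86.4%, 83.9%, 86.9% and 94.5% of these. They held 12426042 of the 19049978 UMIs of all genes in failing barcodes. The EPCAM and KRT8 thresholds caught 57.5% of the CFTR, 26.9% of the GUCA2A, 27.6% of the GUCA2B and 14.3% of the BEST4 UMIs. Of the UMIs of all genes they caught 3021922. Again few barcodes held the guanylins, since 59 with 5 or more GUCA2A UMIs held 77.2% of them. Of these 59 barcodes 56 held GUCA2B, and 44 held BEST4, CA7 or OTOP2. Only 11 passed the gate, 3 held CFTR, and 56 were over the mitochondrial cut-off, with a median of 787 UMIs. The highest, in non-PP pig 2, held 426 GUCA2A, 99 GUCA2B, 5 BEST4 and 6 CA7 UMIs among 1813, of which 19.2% were mitochondrial. So non-PP pig 2, with no CA7 cell among its epithelial QC cells, had the failing barcode with the most GUCA2A. Whether such barcodes were cells was not tested. Among other QC cells 10 barcodes had 5 or more GUCA2A UMIs. The highest, again in non-PP pig 2, held 36 GUCA2A, 35 GUCA2B and 5 CA7 UMIs and missed the gate, with 0 of EPCAM.

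In failing barcodes the mean levels of GUCA2A, GUCA2B and BEST4 lay the other way, higher in non-PP than in PP. GUCA2A was at 109 and 75.2 CPM in PP pigs 1 and 2, 111 and 245 in non-PP, and 28.5 and 21.4 in whole ileum. A single barcode held 19.9% and 86.5% of these GUCA2A UMIs in PP pigs 1 and 2, and 15.4% and 54.5% in non-PP. GUCA2B was at 54.8 and 44.3, 70.8 and 128, and 12.6 and 14.3. BEST4 was at 4.78 and 1.45, 5.43 and 9.72, and 0.741 and 0.891. How many of all genes also separated the PP from the non-PP libraries was not counted. CFTR was at 8.93 and 0 in PP and at 10.3 and 5.64 in non-PP, which overlap. Near-empty barcodes moved the same way, with GUCA2A at 91.9 and 28.4 CPM in PP and 170 and 102 in non-PP, GUCA2B at 36.4 and 16.6 and at 84.9 and 86.8, and BEST4 at 4.05 and 2.94 and at 4.37 and 5.44. In non-PP pig 1 failing barcodes were below the near-empty barcodes for both guanylins. The part of this RNA in the result was not tested. In these sums fewer cells of a type and less RNA per cell cannot be told apart. Barcodes over the mitochondrial cut-off were 47.1% and 41.8% of failing barcodes in PP, 73.1% and 73.4% in non-PP, and 41.0% and 37.7% in whole ileum. Gated barcodes were 4.61% and 0.834% of failing barcodes in PP, 8.62% and 2.04% in non-PP, and 2.05% and 1.37% in whole ileum. The part of either in the result was not tested.

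The log2 difference of non-PP minus PP in failing barcodes was 1.17 ± 0.38 for GUCA2A, 1.22 ± 0.28 for GUCA2B, 1.41 ± 0.59 for BEST4 and 1.01 ± 1.07 for CFTR. The adjusted p by edgeR was 0.13, 0.066, 0.22 and 0.58, so 0 of 4 were called, where 5.46% of 9631 genes were, 0.737% higher and 4.72% lower. At an unadjusted p under 0.05 by edgeR there were 2 of 4, GUCA2A (0.022) and GUCA2B (0.0047), beside 2344 of all 9631 genes. GUCA2B was called by DESeq2 (adjusted p = 0.026), beside 703 of all 9631 genes. With pig as a replicate block edgeR called it too (1.19 ± 0.27, adjusted p = 0.031), beside 1609 of all 9631 genes. This block counts the library labelled whole ileum pig 1 with the female, against its Y-linked UMIs. No fit with the block left that library out, so no conclusion is drawn from this call. Without non-PP pig 1, which leaves 1 non-PP library, the difference of GUCA2B was 1.52 ± 0.24. Without the library labelled whole ileum pig 1 the adjusted p was 0.27 for GUCA2A and 0.20 for GUCA2B. Without barcodes of 5 or more CA7 UMIs the difference was 0.53 ± 0.27 for GUCA2A and 0.99 ± 0.22 for GUCA2B. This left 4034 of 4035 barcodes in non-PP pig 1, 2995 of 2996 in non-PP pig 2 and all of those in PP. The barcode of 426 GUCA2A UMIs in non-PP pig 2 was removed. In PP pig 2 the barcode of 135 GUCA2A UMIs, with 1 CA7 UMI, stayed. So the removal touched non-PP only, and no conclusion is drawn from it. Without the low-count filter both guanylins were called (adjusted p by edgeR 0.029 and 0.013), beside 1149 of all 15278 genes. Leaving out PP pig 1 moved CFTR to 7.83, since PP pig 2 had none. Of the pathway list 13 were tested here, of which AQP8, an aquaporin of the epithelium, was higher in non-PP (2.18 ± 0.37, adjusted p by edgeR 0.030) and GUCY1B1 lower (-5.10 ± 0.97, adjusted p 0.042). Of the BEST4 cell list 5 were tested and SPIB was lower (-4.82 ± 0.49, adjusted p 0.0097). SPIB is also a B cell gene, and in other QC cells it was at 162 ± 21.4 CPM in PP and 5.56 ± 2.02 in non-PP (SD, n = 2).

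**Figure D4:**
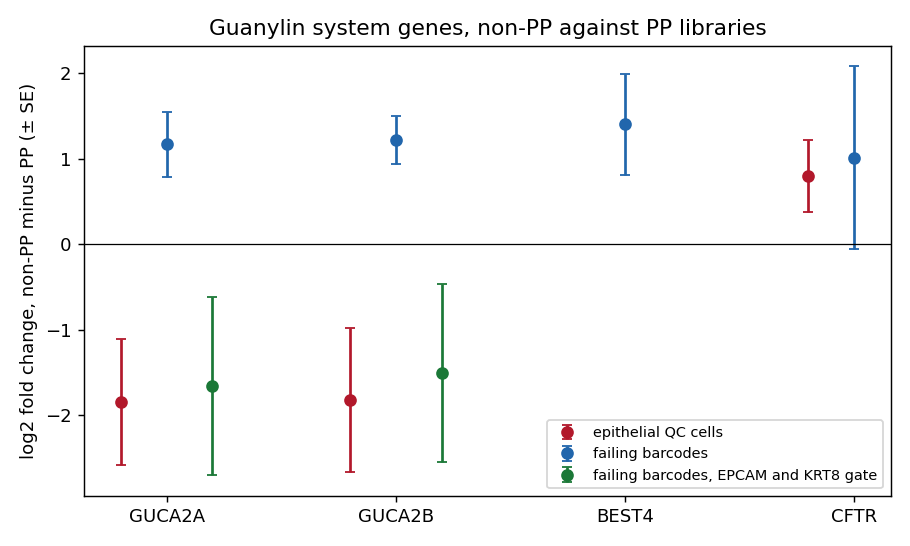
The log2 fold change of non-PP minus PP libraries with its SE (vertical axis) for each gene in epithelial QC cells, in all failing barcodes and in gated failing barcodes; a missing point did not pass the low-count filter. GUCA2A is at -1.85 in epithelial QC cells and at 1.17 in failing barcodes, and none of the points passed an adjusted p of 0.05.

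In gated failing barcodes single barcodes set the values. GUCA2A was at 185 and 1983 CPM in PP pigs 1 and 2, 56.2 and 570 in non-PP and 148 and 39.0 in whole ileum. The 135 UMIs of PP pig 2 came from 1 of its 17 barcodes, and 134 of 167 in non-PP pig 2 from 1 of 61. The difference of non-PP minus PP was -1.66 ± 1.04 for GUCA2A and -1.50 ± 1.04 for GUCA2B, with an adjusted p of 0.999 by edgeR, so 0 of 2 genes tested were called, where 0.0888% of 3377 genes were. None of the 2 had an unadjusted p under 0.05 by edgeR, where 86 of all 3377 genes did. DESeq2 called none of the 2, beside 6 of all 3377 genes. Without non-PP pig 2, which leaves 1 non-PP library, the differences were -3.96 and -3.91, and without PP pig 2 they were 0.88 and 0.84.

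Against epithelial QC cells of the same library, gated failing barcodes differed by -0.95 ± 0.58 on the log2 scale for GUCA2A, -0.02 ± 0.57 for GUCA2B and 0.24 ± 0.26 for CFTR. The adjusted p by edgeR was 0.22, 0.985 and 0.51, so 0 of 3 were called, where 29.7% of 6369 genes were. At an unadjusted p under 0.05 by edgeR there was none, beside 2573 of all 6369 genes. DESeq2 called none of the 3, beside 1274 of all 6369 genes. GUCA2A was called lower without PP pig 2 (-1.64, beside 1856 of all 6737 genes) and without non-PP pig 2 (-1.68, beside 1530 of 6224). Without the library labelled whole ileum pig 1 the differences were -0.31 for GUCA2A and 0.63 for GUCA2B. At a gate of 3 UMIs both guanylins were called lower, beside 1522 of all 6655 genes. Leaving out barcodes of 5 or more CA7 UMIs removed epithelial QC cells only, since no gated failing barcode reached 5. GUCA2A was then at 0.73 ± 0.47 and GUCA2B at 2.41 ± 0.50. GUCA2B was called (adjusted p by edgeR 0.00095), beside 1886 of all 6300 genes. Most guanylin UMIs of the epithelial QC cells, and none of the gated failing barcodes, were removed, so no conclusion is drawn from this setting. CFTR lay between 0.06 and 0.42 in every setting tried. The GUCY2C or PLBD1 entry was lower by -0.66 ± 0.21 (adjusted p by edgeR 0.018), a call lost with DESeq2 (0.10), without PP pig 1 (0.12), without non-PP pig 1 (0.087) and without the library term (0.30). Of the pathway list 14 were tested, 8 were higher in the failing barcodes, PDZD3 (1.57 ± 0.26), SLC26A6 (1.49 ± 0.24) and SLC26A3 (1.39 ± 0.39) the most, and 2 were lower, SLC9A3R2 (-2.56 ± 0.47) and SLC12A2 (-1.21 ± 0.21). Over all genes tested 14.5% were higher and 15.2% lower. SLC26A3 is an exchanger of the villus surface and SLC12A2 the basolateral chloride importer of secreting cells.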

How the data were processed

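Droplet libraries were made from ileum (3 dissections of 2 pigs) and blood of the same pigs, and each library's 4 sequencing runs were taken as 1 replicate. The authors deposited unnormalised UMI counts, a matrix of genes by all barcodes for each library, written by Cell Ranger (version 4.0.6 in the submitters' processing notes, 4 in the file headers) from reads aligned to Sscrofa11.1 with a modified annotation, before the study's own filters on cells. No per-sample column was left unused. Library sizes, depths and cell numbers are given with the results. Intervals and floors of 3 counts cover counting error only. Intervals are exact 95% binomial.

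The cut-offs of a QC cell on UMIs, genes and mitochondrial share (13 genes) are those of the study's methods, except that no ambient RNA was removed. Doublets were kept, and removed as an alternative by Scrublet above a score of 0.25 at an expected rate of 0.07. Counts were summed per library and class, filtered with filterByExpr, scaled by TMM and tested with edgeR's quasi-likelihood test, with Benjamini-Hochberg adjustment over all genes and a call at 0.05. The pig was not a block in the main comparison of dissections. Libraries of 1 pig are paired by animal, and their deviations from the dissection mean correlated at r = 0.45 (PP and non-PP, epithelial QC cells), but at 0.02 and 0.07 with whole ileum, where the label of 1 library is in doubt. In failing barcodes the same 3 values were 0.68, 0.18 and 0.17. SE was the log2 fold change over the root of the F statistic. Clusters of epithelial QC cells used 2000 variable genes, less the genes reported, 20 PCs, 10 neighbours and Leiden resolution 1. A cluster was named where at least 3 markers of a list were at least 1 log2 unit higher in at least 25% of its cells and 2 were among its 10 leading genes. Every gene found is reported, with at most the 3 largest calls of each list in each direction. PRKG2, PDE5A and GUCY1B1 and further list genes were named for their role after their values were seen. ALPI, PRAP1, FCGBP, ZG16, REP15, SH2D6, IRAG2, ABCC4 and CTSE were listed but are not named in the matrices. The genes and lists were chosen with earlier results of these data known. In simulated data 87.5% of genes changed by 3 on the log2 scale were called in the comparison of epithelial with other QC cells (11645 genes). Between dissections it was 89% in epithelial QC cells, 92% in failing barcodes and 91.5% in gated ones. Smaller changes, such as those of the guanylins between dissections in the main fits, were not simulated. The simulated spread followed the trend over all genes. Genes whose UMIs lie in few cells, such as the guanylins, were not simulated as such. Alternatives were other size factors, DESeq2, no low-count filter, other gates and minima, doublets removed, the pig as a block and each library left out. Further ones were sums per pig, which left out whole ileum, the 4 PP and non-PP libraries alone, no library term, and other QC cells without EPCAM or KRT8 UMIs. Leaving out CA7 or leukocyte-led cells was added after seeing the data. No sequences were used here. Tools were edgeR 4.0.16 and DESeq2 1.42.0 in R 4.3.3, and scanpy 1.11.5, igraph 0.11.9, matplotlib 3.10.9, pandas 2.3.3, scipy 1.17.1 and numpy 2.4.6 in Python 3.11.15.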

Additional observations from a re-analysis of the deposited data

Results flagged for a closer look

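Blood libraries enter no comparison, and 5 of the 11 genes read there were above the limit that a count of 0 allows (0.112 CPM in pig 1 and 0.0930 CPM in pig 2). The entry named GUCY2C in one table and PLBD1 in the matrices was at 213 CPM in PBMC pig 1 and 451 CPM in PBMC pig 2. OTOP2, listed here as a BEST4 cell gene, was at 5.10 CPM in PBMC pig 1 (137 UMIs in 117 of 6443 QC cells) and 22.9 CPM in PBMC pig 2 (739 UMIs in 436 of 6800), with no UMI of CA7 or BEST4 in either. Of the other genes listed for BEST4 cells, SPIB was at 84.8 and 77.1 CPM, HES4 at 1.26 and 1.92 and OTOP3 at 0.819 and 1.52 in PBMC pigs 1 and 2.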

How the results depend on the processing

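Of 323 log2 differences recomputed, 289 kept their direction and their side of the threshold, as did 71 of 82 counts of genes called (within 1.5 times) and 15 of 16 shares. The 4 genes were called higher in epithelial than in other QC cells in each setting that tested them. In the main fit BEST4 and CFTR passed the low-count filter only through the epithelial sums. Without the low-count filter the genes called rose to 2 in epithelial QC cells and 2 in failing barcodes (non-PP minus PP), and to 1 in gated failing barcodes against epithelial QC cells. Over all genes 171 of 13461, 1149 of 15278 and 2034 of 13907 were called there, in that order. With pig as a replicate block 1 was called in failing barcodes, as with DESeq2 (1), and the block changed no other call. The block used the pig label of whole ileum pig 1, which is in doubt. Over all genes the block moved the calls from 2 to 36 in epithelial QC cells, 526 to 1609 in failing barcodes and 3 to 13 in gated ones. Between dissections, leaving out a PP or non-PP library left 1 library of that dissection, so calls of such fits are not given. Against epithelial QC cells leaving out 1 library gave 0 to 1 genes called, beside 1221 to 1856 of all genes. A gate of 3 UMIs gave 2, both guanylins and both lower, beside 1522 of all 6655 genes. Leaving out CA7 cells gave 1, beside 1886 of all 6300 genes. The cause was not tested. In the last of these the CA7 cells left out were all epithelial QC cells.

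In gated failing barcodes the direction of non-PP minus PP turned without PP pig 2 (GUCA2A 0.88, GUCA2B 0.84; without any 1 library they ranged from -3.96 and -3.91 to these), with a gate of 3 UMIs (3.18 and 2.22) and, for GUCA2A, a gate of 1 (0.0040). Against epithelial QC cells GUCA2B turned without PP pig 1 (0.25), non-PP pig 1 (0.37), whole ileum pig 1 (0.63) and pig 2 (0.12). Without any 1 library its range was -0.80 to 0.63. Over all alternatives GUCA2B ranged from -2.72 to 2.41 and GUCA2A from -3.31 to 0.73. GUCA2B also turned with a gate of 1 UMI (0.19), no replicate block (0.28) and sums per pig of the PP and non-PP libraries (0.56). Leaving out CA7 cells, which removed epithelial QC cells only, gave 2.41 (GUCA2A 0.73). The GUCY2C or PLBD1 entry turned in epithelial QC cells without PP pig 2 (-0.05) and non-PP pig 1 (-0.12), with a range of -0.12 to 0.68. The unthinned share of GUCA2B was 2.09 points higher in non-PP. Over all genes the calls ranged from 0 to 171 in epithelial QC cells, 34 to 1609 in failing barcodes, 0 to 109 in gated ones and 674 to 2461 against epithelial QC cells, over the alternatives.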
